A study of Mus musculus with 34 samples.

Results

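A set of 111 of the 23737 rows in the deposited table is described here. These rows rose at least 2-fold in gastrocnemius muscle after denervation. They stayed near or above their denervated level under both an inhibitor of class IIa histone deacetylases and an induced deletion of Hdac4. The rows were chosen from the group means of log2(TPM + 1), where TPM stands for transcripts per 1000000, an abundance scaled for transcript length and library total. A row entered when its mean in control legs was at least 2 and under 1000 TPM and its log2 rise with denervation was at least 1. It was kept when each intervention brought it back by at most 20% of that rise. The first 2 limits were met by 901 rows, of which the 111 kept rows were 12.3%. All levels, rises and kept shares below therefore describe values that chose the rows. For the same reason the p-values of differences between groups in these rows are a description only.

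Gastrocnemius muscle of female mice was profiled in 34 libraries of polyadenylated RNA. At 6 months of age the left sciatic nerve was cut, and dosing with either vehicle or 10 mg/kg NVS-HD1, 2 times a day over 2 weeks, began the same day. The groups were 8 control (contralateral) legs of wild-type mice on vehicle (WT_VEH_CON), 7 denervated legs of wild-type mice on vehicle (WT_VEH_DEN), 10 denervated legs of NVS-HD1-treated wild-type mice (WT_NVS_DEN) and, on vehicle, 9 denervated legs of HDAC4 inducible whole-body knockout mice (iRKO_VEH_DEN). The knockout carries a floxed exon 5 of Hdac4 and a Cre-ERT2 expressed from the ROSA26 locus. Tamoxifen was injected at 4 months of age at 40 mg/kg on 7 days, and surgery followed 6 weeks later. The labels do not say whether wild-type mice received tamoxifen, and the deletion is not limited to muscle. Control legs of NVS-HD1 or knockout mice were not analysed here. An intervention effect that is also present in innervated muscle therefore cannot be told apart from a changed response to denervation. Which legs belong to which mouse is not labelled, so some control and denervated legs may come from the same mouse, and p-values measure the spread between these libraries.

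Skeletal muscle that loses its motor nerve atrophies and changes its transcription. HDAC4 is a class IIa histone deacetylase that accumulates in denervated muscle. By repressing Dach2, it releases the transcription factor myogenin, which drives acetylcholine receptor subunits and ubiquitin ligases of the atrophy programme. The series names NVS-HD1 as an inhibitor of class IIa enzymes, a family that includes HDAC4, while the deletion targets Hdac4.

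The rows could not be read as genes. Of 7 rows labelled with symbols of abundant skeletal muscle genes, among them Acta1, Ttn and Ckm, 3 were at 0 TPM in all libraries and the highest mean was 7.91 TPM. Of 11 rows labelled as textbook denervation genes, such as Myog and Chrna1, 1 had a log2 rise of at least 1 and 0 were among the kept rows. Neither the muscle identity of the libraries nor the deletion of Hdac4 can be checked by symbol. Rows are therefore named by their position in the table, counted from 1 below the header, and no gene, pathway, sequence or cell type is assigned to them. These are bulk samples, so a row that is higher because a cell type is more frequent cannot be told apart from one with more RNA per cell. Each library holds a fixed total of TPM, and its read depth is unknown.

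The kept rows were mostly of low to moderate abundance. Their mean in control legs ranged from 2.02 to 316.5 TPM with a median of 11.4 TPM, against a median of 18.2 TPM over the 901 rows that met the level and rise limits. Their log2 rise ranged from 1.01 to 3.45 with a median of 1.25, and 16 of 111 rose at least 4-fold. The kept share is the part of the denervation rise still present under an intervention, 0% at the control mean and 100% at the WT_VEH_DEN mean. Its median was 109.3% with NVS-HD1 (range 80.9% to 183.5%) and 101.7% in the knockout (range 80.5% to 184.7%). Over the 901 rows the medians were 55.6% and 46.4%. Without WT_NVS_DEN replicate 7, which stood apart from its group in many kept rows, the median with NVS-HD1 was 103.0%. Under NVS-HD1 161 of the 901 rows met the limit, and under the knockout 117 did. Both shares contain the same WT_VEH_DEN and control libraries, so chance deviations of those libraries move them together.

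**Figure D1:**
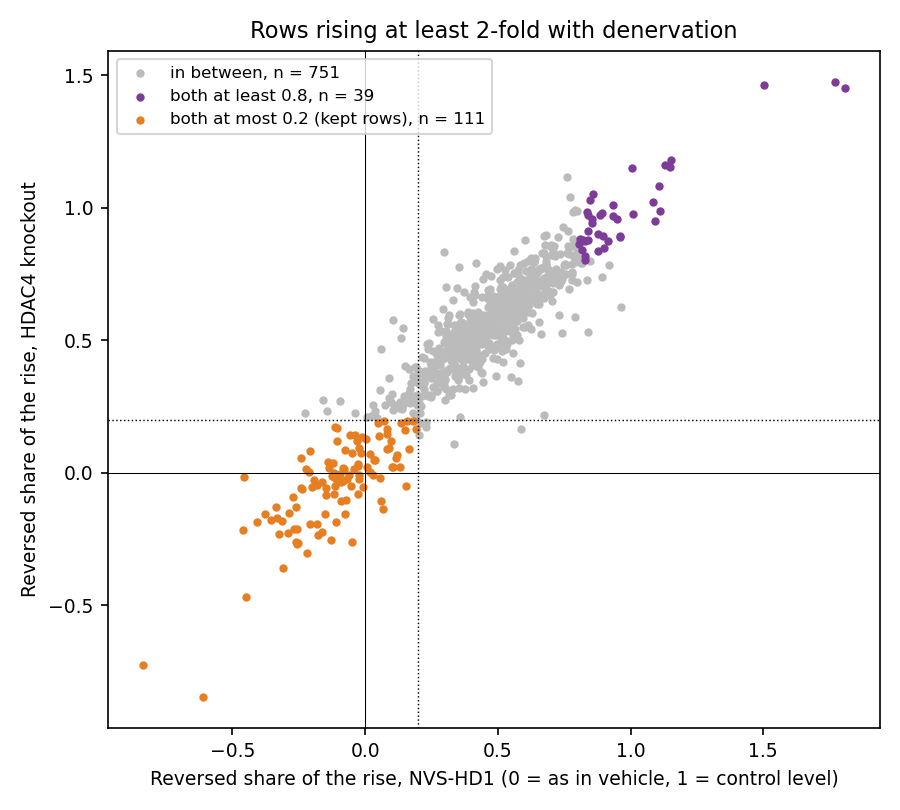
Reversed share of the denervation rise under NVS-HD1 (x axis) and under the knockout (y axis) for the 901 rows with a log2 rise of at least 1 and 2 to 1000 TPM in control legs. Each point is a row, dotted lines mark the limit of 0.2, and 111 kept rows lie at the lower left end of a continuous band that runs through 751 rows in between to the 39 rows that both interventions reversed by at least 0.8. The axes share the WT_VEH_DEN and control libraries.

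Every kept row passed the filter of at least 1 TPM in at least 7 libraries and entered the limma fit. All 111 were called higher in WT_VEH_DEN than in WT_VEH_CON (limma, adjusted p under 0.05), as their choice all but requires. The background was 41.9% of the 13108 rows tested. In WT_NVS_DEN and in iRKO_VEH_DEN all 111 were also called above control, where 41.9% and 34.3% of all rows were. With the number in the library titles as a term in the fit, 83 and 68 of the 111 were called different from control in either direction (limma). Of all rows 23.3% and 17.6% were called in that way, and the median SE over the kept rows was 0.417 and 0.47. The 7 WT_VEH_DEN libraries all lay above the 8 control libraries in 89 of the 111 rows, against 24.3% of all rows tested. The corresponding counts were 91 rows for NVS-HD1 (15.2% of all rows) and 79 rows for the knockout (8.15%). In the other 22, 20 and 32 rows at least 1 library of the denervated group overlapped the control range.

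Against WT_VEH_DEN, 9 of the 111 rows were called higher with NVS-HD1 and 0 lower, where 18.5% and 21.2% of all rows were called. At an unadjusted p under 0.05, 13 were higher and 1 was lower. That made 9 calls in either direction (39.7% of all rows). In the knockout 8 were called higher and 4 lower (limma), where 15.3% and 25.9% of all rows were called, and 41.2% in either direction. The 4 called lower were rows 4175, 6739, 8866 and 11930, named after their values were seen. In row 11930 the mean was 208.8 TPM in WT_VEH_DEN and 158.1 TPM in the knockout, above 32.3 TPM in control legs, and the log2 difference from WT_VEH_DEN was -0.44 (SE 0.138; limma, adjusted p = 0.0104). With the title number as a term, 0 of the 111 rows were called against WT_VEH_DEN by limma with NVS-HD1 (5 at an unadjusted p under 0.05) and 0 in the knockout (3 unadjusted). In that fit 3.89% and 1.23% of all rows were called, and the median SE over the kept rows was 0.383 and 0.44. NVS-HD1 and WT_VEH_DEN shared a number through 1 NVS-HD1 library only, and knockout and WT_VEH_DEN libraries shared none. The absence of calls in that fit therefore does not show that differences are absent. The limit on the reversed share keeps larger falls out, so nothing is read from the few falls. The 95% interval of the limma difference still included a fall of more than 20% of the rise in 46 rows with NVS-HD1 and in 70 rows in the knockout. It included a fall of more than 50% of the rise in 2 and 5 rows. In those rows a fall beyond the limit is not excluded. Some of these unadjusted intervals also lay wholly below 0, as in row 6739 in the knockout (-0.42 to -0.044).

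The largest rise among the kept rows was in row 4216. It lay between 4.54 and 12.6 TPM in control legs (median 7.61) and between 79.4 and 104.3 TPM in WT_VEH_DEN (median 93.8). With NVS-HD1 it lay between 74.0 and 181.4 TPM (median 94.3), and in the knockout between 75 and 133.0 TPM (median 90.9). All denervated libraries of the 3 groups were above all control libraries, and the 3 denervated groups overlapped. The log2 rise was 3.45 with an SE of 0.160 (limma, adjusted p = 2.14e-18), and the kept shares were 102.3% and 102.4%.

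Row 4509 had nearly the same medians in the 3 denervated groups. It went from 2.62 to 13.9 TPM in control legs (median 5.69) to 48.4 to 94.7 TPM in WT_VEH_DEN (median 66.1). The medians were 66.0 TPM with NVS-HD1 (range 53.8 to 95.2) and 66.8 TPM in the knockout (range 47.4 to 92.8). No denervated library of any group reached down to the control range, and the kept shares were 98.3% and 99.7%.

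Row 5366 was more variable in control legs. Its 8 control libraries spanned 7.18 to 43.9 TPM (median 9.94), and replicate 4 was the high one. WT_VEH_DEN spanned 118.7 to 183.0 TPM (median 135.7), WT_NVS_DEN 148.8 to 273.2 TPM (median 179.5) and iRKO_VEH_DEN 96.6 to 297.2 TPM (median 164.0). The log2 rise was 3.32 with an SE of 0.274 (limma, adjusted p = 1.56e-12). The difference from WT_VEH_DEN was 0.49 with NVS-HD1 (SE 0.261; limma, adjusted p = 0.139) and 0.28 in the knockout (SE 0.267; limma, adjusted p = 0.436).

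Row 3069 rose with denervation and was higher again under both interventions. It spanned 8.50 to 29.8 TPM in control legs (median 18.4), 110.5 to 211.3 TPM in WT_VEH_DEN (median 165.1), 204.2 to 378.1 TPM in WT_NVS_DEN (median 283.4) and 119.1 to 402.8 TPM in iRKO_VEH_DEN (median 264.5). Both intervention groups overlapped WT_VEH_DEN. The log2 differences from WT_VEH_DEN were 0.79 with NVS-HD1 (SE 0.209; limma, adjusted p = 0.00267) and 0.66 in the knockout (SE 0.214; limma, adjusted p = 0.0135).

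Rows 19499 and 17909 complete the 6 largest rises, both with a log2 rise of 3.05. Row 19499 was the lowest of the 6 in control legs, at 0.410 to 9.0 TPM (median 2.0). It spanned 24.6 to 32.95 TPM in WT_VEH_DEN (median 26.4), 12.7 to 30.8 TPM in WT_NVS_DEN (median 18.5) and 8.24 to 26.9 TPM in iRKO_VEH_DEN (median 17.6). The knockout range overlapped the control range here, and the kept shares of 84.1% and 80.7% were close to the limit. Row 17909 spanned 10.2 to 58.2 TPM in control legs (median 20.6) and 122.0 to 397.7 TPM in WT_VEH_DEN (median 152.6). It reached 157.5 to 622.1 TPM with NVS-HD1 (median 240.3) and 174.3 to 423.2 TPM in the knockout (median 251.1), with the highest value in WT_NVS_DEN replicate 7.

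**Figure D2:**
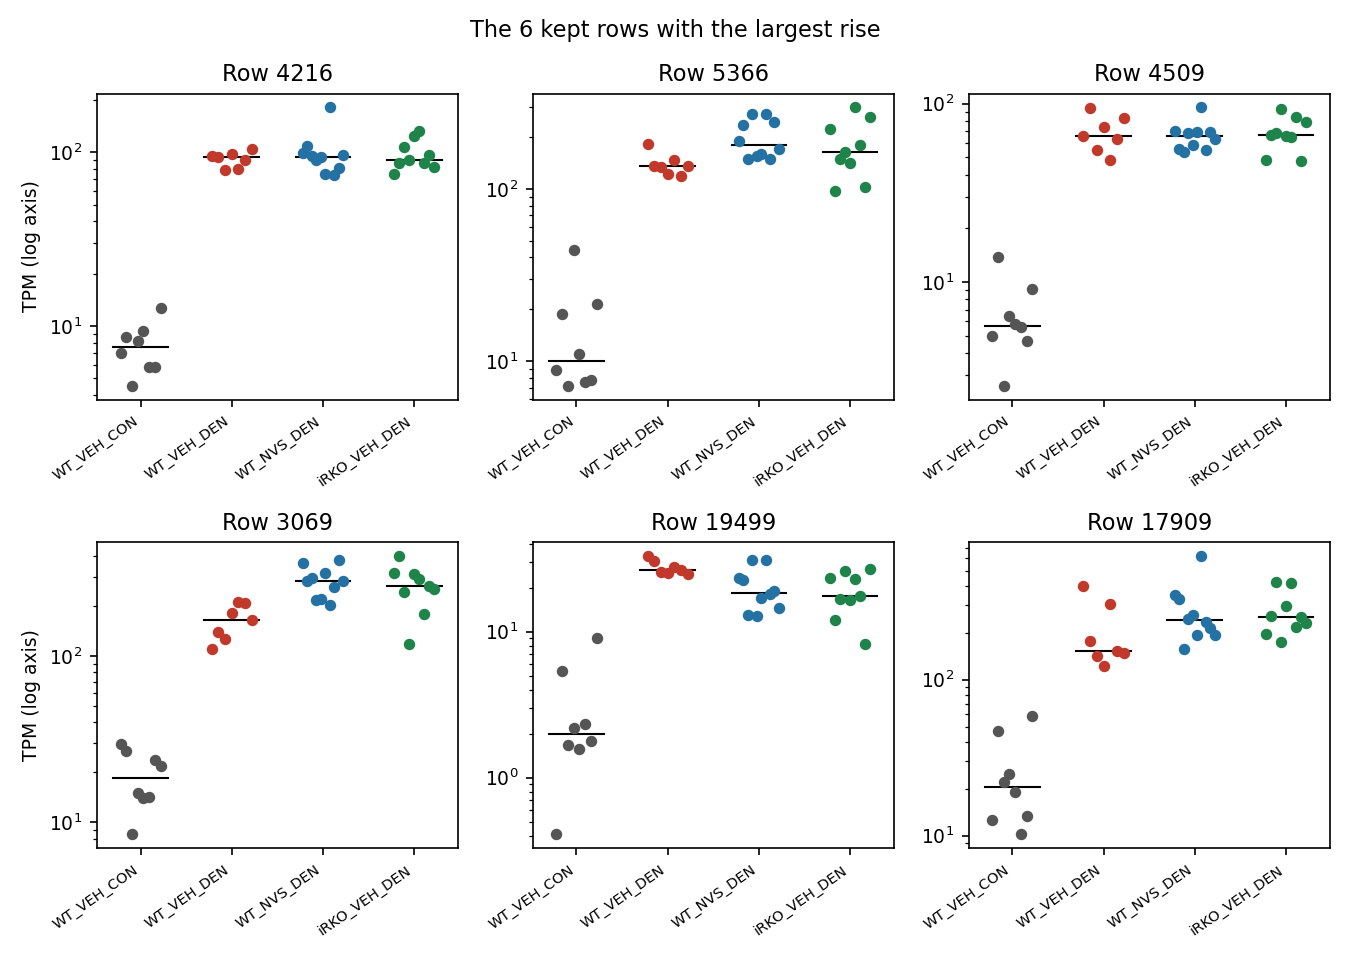
TPM (log axis) of the 6 kept rows with the largest rise. Each point is a library, coloured by group, and horizontal lines are group medians. In 5 of the 6 panels all denervated libraries lie above all control libraries, and in row 19499 the lowest knockout library, at 8.24 TPM, falls below the highest control library, at 9.0 TPM.

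The 4 kept rows with the highest control level were rows 349, 1960, 15490 and 15639. Row 349 was the most abundant, at 255.9 to 386.5 TPM in control legs (median 307.9) and 931.8 to 1448 TPM in WT_VEH_DEN (median 1303). Under NVS-HD1 it lay between 802.5 and 1856 TPM (median 1092) and in the knockout between 662.6 and 1374 TPM (median 1024). Its 3 denervated groups overlapped each other and none overlapped control, with kept shares of 94.8% and 86.1%. The other 3 rows had control means of 164.0, 136.6 and 130.1 TPM and log2 rises of 1.2, 1.08 and 1.08. Row 15490 was the tightest of the 4 in WT_VEH_DEN, at 287.4 ± 16.9 TPM (SD, n = 7) against 136.6 ± 22.1 TPM (SD, n = 8) in control legs.

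In 58 of the 111 rows both intervention means were above the WT_VEH_DEN mean, and in 25 both were below it. With NVS-HD1 81 of 111 were above, and 63 in the knockout. The rule limits falls below WT_VEH_DEN but not values above it, so the choice of rows favours rows above. These splits also depended on the scaling between libraries. Over all rows tested the median log2 change with denervation was 0.17 on the deposited scale and 0.0067 with libraries scaled by the median of ratios, and the median over the kept rows was 1.25 and 1.08. The numbers above WT_VEH_DEN were 81 and 78 on that second scale, 88 and 87 when quantile-normalized, and 98 and 95 when each library was rescaled to its total outside the 20 most abundant rows. Without WT_NVS_DEN replicate 7, 69 were above with NVS-HD1.

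The kept rows highest under both interventions were rows 10704, 14222, 4414 and 1598. They were picked for standing highest above WT_VEH_DEN in these same values, so their calls against WT_VEH_DEN are a description only. Row 14222 lay between 4.85 and 8.13 TPM in control legs (median 7.27) and between 14.8 and 22.4 TPM in WT_VEH_DEN (median 16.7). It lay between 19.9 and 37.2 TPM with NVS-HD1 (median 30.6) and between 25.7 and 51.9 TPM in the knockout (median 33.9). The 9 knockout libraries were all above the 7 WT_VEH_DEN libraries, which held for 1 of the 111 rows and for 4.06% of all rows tested. With NVS-HD1 0 of the 111 rows had all libraries above WT_VEH_DEN (4.74% of all rows). No kept row had all WT_VEH_DEN libraries above those of an intervention, where 7.05% of all rows did for NVS-HD1 and 8.4% for the knockout. The log2 differences from WT_VEH_DEN were 0.75 with NVS-HD1 (SE 0.123; limma, adjusted p = 7.60e-06) and 1.05 in the knockout (SE 0.126; limma, adjusted p = 3.09e-08). The row thus stood at 161.0% and 184.7% of its denervation rise.

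Row 10704 had the largest kept share under NVS-HD1, 183.5%, and 172.8% in the knockout. Its WT_VEH_DEN libraries spread widely, from 9.80 to 36.4 TPM (median 18.7), and replicate 5 was the highest. Without that library the log2 rise was 0.88, under the limit of 1. Control legs lay between 5.72 and 8.97 TPM (median 7.49), NVS-HD1 libraries between 11.6 and 45.9 TPM (median 33.6) and knockout libraries between 15.2 and 49.0 TPM (median 29.4). The log2 differences were 0.88 with NVS-HD1 (SE 0.239; limma, adjusted p = 0.00331) and 0.77 in the knockout (SE 0.244; limma, adjusted p = 0.0109). Rows 4414 and 1598 were also called higher than WT_VEH_DEN in both groups, with kept shares of 145.1% and 146.8%, and of 130.8% and 136.1%.

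**Figure D3:**
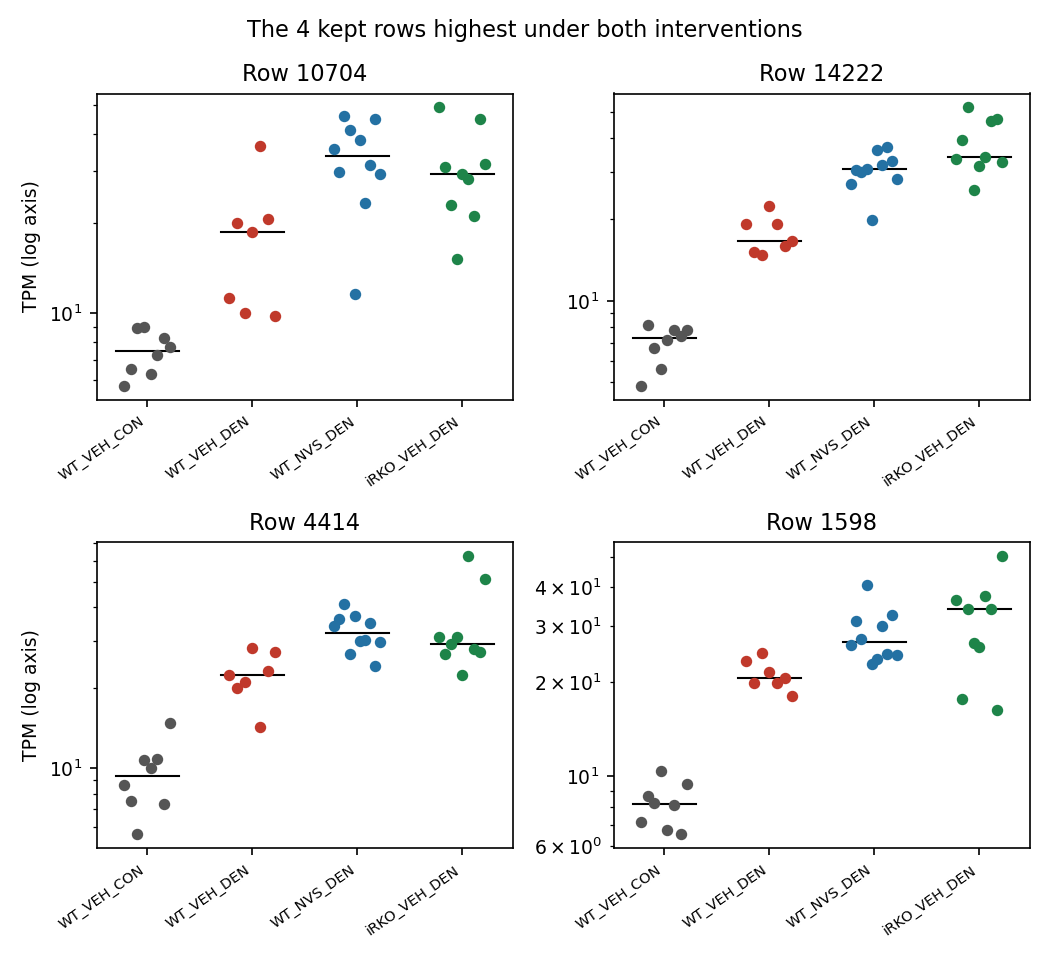
TPM (log axis) of the 4 kept rows that stood highest under both interventions relative to WT_VEH_DEN. Points are libraries and horizontal lines group medians. The knockout libraries of row 14222 all lie above its WT_VEH_DEN libraries, whereas the groups overlap in rows 10704, 4414 and 1598.

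NVS-HD1 and the knockout were compared directly in denervated legs. The rule keeps both from falling far below WT_VEH_DEN, which narrows the differences that can be seen without setting an upper limit on them. Limma called 0 of the 111 rows different, and 5 were higher and 3 lower with NVS-HD1 at an unadjusted p under 0.05. Over all rows tested 0.061% were called higher and 0.0153% lower with NVS-HD1, or 0.0763% in all. In 85 of the 111 rows the unadjusted 95% interval left no room for a difference beyond 1.5-fold in either direction, and in 110 for one beyond 2-fold. The largest difference was in row 2981, with a mean of 65.2 ± 28.2 TPM (SD, n = 10) with NVS-HD1 and 48.9 ± 24.9 TPM (SD, n = 9) in the knockout. The log2 difference was 0.50 with a 95% interval of -0.24 to 1.25 (limma, adjusted p = 0.745). It was followed by rows 1419, 17908 and 8548, with log2 differences of 0.45, 0.38 and 0.36. In row 17908 the NVS-HD1 mean of 11.9 TPM contained a single library, replicate 7, at 41.3 TPM, while the other 9 lay between 5.83 and 11.9 TPM. Without it the mean was 8.65 TPM and the log2 difference from the knockout 0.16. In rows 2981, 1419 and 8548 the log2 differences without replicate 7 were 0.38, 0.33 and 0.29.

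The position of each library was then read over all kept rows, as the median percentage of the denervation rise. It was -0.854% ± 18.1 (SD, n = 8) in control legs and 99.8% ± 7.31 (SD, n = 7) in WT_VEH_DEN. In denervated legs it was 107.1% ± 16.1 (SD, n = 10) with NVS-HD1 and 102.5% ± 16.2 (SD, n = 9) for the knockout. The means are set by the choice of rows, and the order of libraries within a group is not. Control replicates 2 and 8 stood at 21.8% and 27.6%, and the other 6 between -21.9% and 5.16%. WT_NVS_DEN replicate 7 stood at 145.1% and the other 9 between 91.3% and 114.7%. Knockout replicates 1, 6 and 9 stood at 117.5% to 127.0%, and replicate 8 was lowest at 79.8%.

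**Figure D4:**
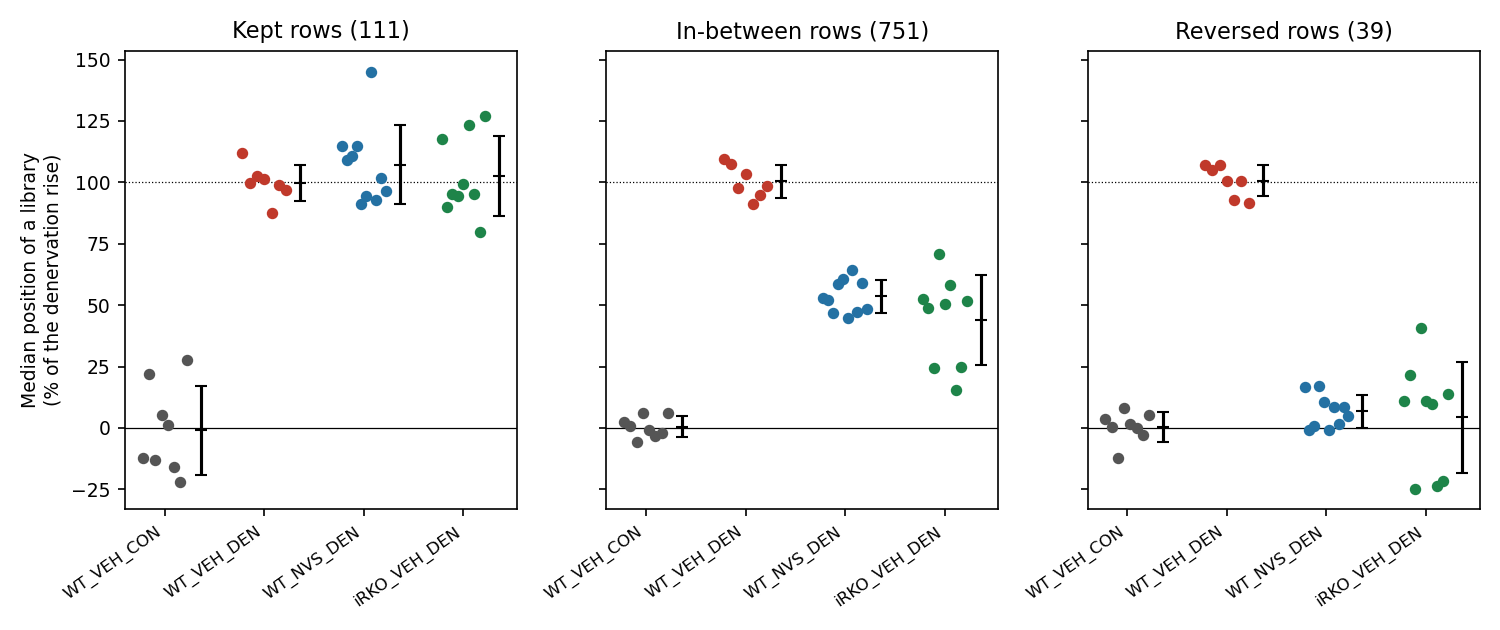
Median position of each library, with the mean of control legs at 0% and that of WT_VEH_DEN at 100%, over the 111 kept rows, the 751 rows in between and the 39 reversed rows. Points are libraries, and bars are the group mean and SD. Over the kept rows the intervention groups lie around 100% and control libraries spread from -21.9% to 27.6%, while over rows in between the control libraries lie between -5.71% and 6.27%.

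This order differed from that over the other rising rows. Over the 39 reversed rows control replicates 2 and 8 stood at 0.295% and 5.30%, and NVS-HD1 replicate 7 at 8.70%, inside the range of its group (-1.0% to 17.2%). Over the 751 rows in between, NVS-HD1 replicate 7 was the highest of its group at 64.4%, with the others between 44.7% and 60.8%. Knockout replicates 3, 7 and 8 were the lowest of their group over the reversed rows, at -24.7% to -21.4%, and over the rows in between, at 15.3% to 24.9%. Over the kept rows replicates 3 and 7 stood at 95.3% and 95.4%, near the middle of the group. In these 3 libraries the 20 most abundant rows of the table held 40.9% to 41.8% of all TPM, above the other knockout libraries at 32.4% to 35.9%. The part of that share in the positions was not tested. Without these 3 libraries the median kept share of the 111 rows in the knockout was 109.3%.

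Leaving out 1 library at a time keeps the TPM of that library out of the choice of rows. When the rule was applied without a library, it gave 101 to 122 rows, and the left-out library was placed on them. The scale of this placement was set by the control and WT_VEH_DEN means of the remaining libraries, which did choose the rows. Chance deviations of those means can shift the positions of left-out libraries, so these positions are not free of the choice. Left-out NVS-HD1 libraries stood at 107.0% ± 16.2 (SD, n = 10), from 90.8% to 144.9%. Left-out knockout libraries stood at 101.4% ± 17.4 (SD, n = 9), from 77.8% to 127.7%. Left-out control libraries stood between -25.3% and 31.8%. The lowest left-out library of any denervated group, at 77.8%, was thus above the highest control library. A median of 88.3% of the chosen rows was at or above 80% of the rise in a left-out NVS-HD1 library and 73.6% in a left-out knockout library, where replicate 8 was lowest at 46.6%. For left-out WT_VEH_DEN libraries, which had no intervention, this median was 92.0% (range 63.0% to 93.0%).

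Summed over the 111 rows, the TPM made up 0.274% ± 0.0455 of a control library (SD, n = 8) and 0.826% ± 0.0274 of a WT_VEH_DEN library (SD, n = 7). The share was 0.916% ± 0.146 with NVS-HD1 (SD, n = 10) and 0.864% ± 0.0942 in the knockout (SD, n = 9). Control libraries lay between 0.228% and 0.346%, and all 26 denervated libraries between 0.753% and 1.27%.

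The rule did not use the spread between libraries of a group directly. A wide spread can still help a row to pass limits on group means by chance, and how far it did so was not tested. The spread over the kept rows was wider than at the same limits on the control level in all groups, least so in WT_VEH_DEN. The median SD of log2(TPM + 1) over the kept rows was 0.351 in control legs, 0.217 in WT_VEH_DEN, 0.360 with NVS-HD1 and 0.332 in the knockout. Over the 11007 rows tested with the same limits on the control level the medians were 0.209, 0.187, 0.20 and 0.231. In the same order they were 0.189, 0.194, 0.205 and 0.309 over the rows in between. Those rows had a higher median control level than the kept rows, at 19.7 against 11.4 TPM. Over the 39 reversed rows the median SDs were 0.211, 0.276, 0.245 and 0.367. A wide spread in the knockout was thus also seen in the other rising rows. The SD was larger in control legs than in WT_VEH_DEN in 95 of the 111 kept rows (85.6%), in 59.1% of the rows with the same limits on control level and in 48.3% of the 751 rows in between.

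**Figure D5:**
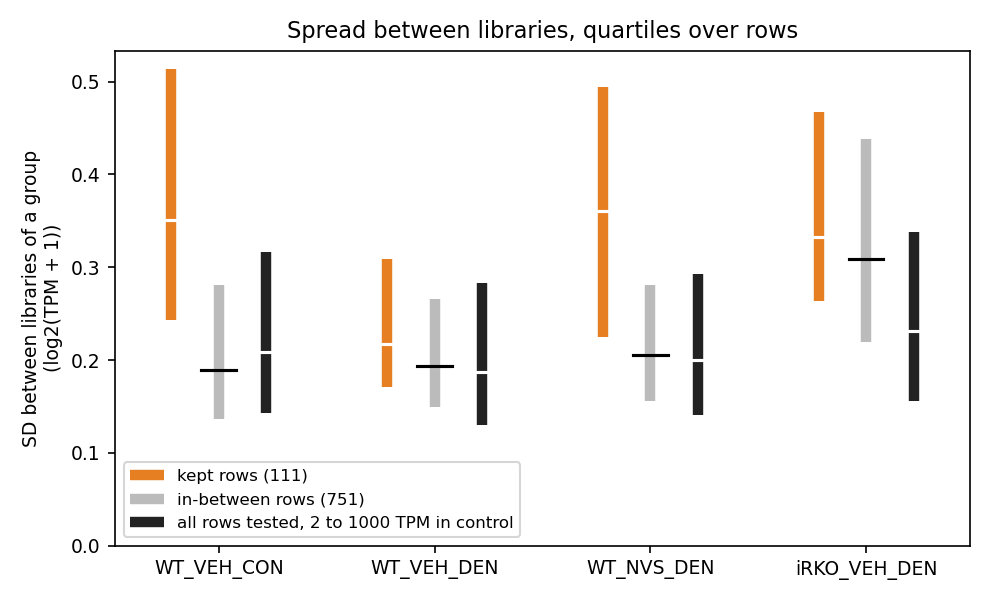
SD between libraries of a group, on the log2(TPM + 1) scale, for the kept rows, the rows in between and all rows tested at 2 to 1000 TPM in control legs. Bars span the quartiles over rows and the line inside each is the median. The kept rows have medians of 0.351 in control legs and 0.217 in WT_VEH_DEN.

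Much of this spread was shared among the rows. After removal of the group means, the correlation of a kept row with the mean of the other kept rows over the 34 libraries had a median of 0.645 (range -0.222 to 0.939), and it was above 0.5 in 74 of 111 rows and below 0 in 5. Between pairs of rows the median was 0.344 for kept rows, 0.336 for reversed rows and 0.403 for rows in between, so such sharing was seen in all 3 sets. These are correlations across libraries that share the same rows and TPM totals, given as a description. Rows 11542, 983, 1960 and 15600 followed the others most closely, with r from 0.923 to 0.939, and were named after their values were seen. Rows 10704 and 14222, which stood highest under both interventions, had r of -0.036 and -0.016.

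The shared pattern was then taken from the 16 WT_VEH_DEN and iRKO_VEH_DEN libraries alone and looked up in the others. In these libraries 71 rows had r above 0.5 with the mean of the other kept rows. In those 71 rows NVS-HD1 replicate 7 stood above the other NVS-HD1 libraries by a median of 1.06 on the log2 scale, and it was the highest of its group in 58. In the remaining 40 rows its median excess was 0.168 and it was the highest in 11. Control replicates 2 and 8 stood above the other control libraries by medians of 0.449 and 0.534 in the 71 rows, and by 0.206 and 0.217 in the 40. Over all 111 rows NVS-HD1 replicate 7 was the highest of its group in 62.2%, against 25.7% of all rows tested, and control replicate 8 in 48.6% against 24.1%. The 71 rows had a median kept share of 111.3% with NVS-HD1 and 102.2% in the knockout, and the 40 rows 103.0% and 98.8%. The 71 rows were also more variable, with a median SD of 0.397 against 0.275 in control legs and 0.422 against 0.244 with NVS-HD1. Their median control level was lower, at 10.4 against 17.1 TPM. How much of the larger excesses goes with this larger spread was not tested.

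Each title carries a number from 20 to 29 whose meaning the labels do not give, and which is not evenly spread over the groups. Within number 29, 3 WT_VEH_DEN against 5 control libraries, the median log2 rise of the kept rows was 1.37, and 103 of 111 had a rise of at least 1. The pooled median was 1.25. Within number 28, 4 WT_VEH_DEN libraries against control replicate 2, the median was 0.999, and 54 of 111 had a rise of at least 1. In that number WT_NVS_DEN replicate 4 stood above WT_VEH_DEN by a median of 0.23, against a pooled difference of 0.11, and 89 of 111 rows were higher. NVS-HD1 and knockout libraries shared numbers 26 and 27, with median differences of 0.053 and 0.14, and a pooled one of 0.077. Knockout and WT_VEH_DEN libraries shared no number, so for them number and knockout cannot be told apart within a number. With the number as a term in the fit the rule chose 203 rows, which include 80 of the 111.

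Differences between title numbers inside a group were not among the quantities the rule used, although an effect of the number would also shift the group means, since the numbers are unequally spread. Limma called 0 of the 111 rows, and 0% of all 13108 rows, between numbers 29 and 28 in WT_VEH_DEN, 29 and 20 in WT_VEH_CON, 27 and 26 in WT_NVS_DEN, and 25 and the mean of 26 and 27 in iRKO_VEH_DEN. At an unadjusted p under 0.05 there were 1, 6, 2 and 5 of the 111 rows. The lowest unadjusted p in WT_VEH_DEN were in rows 18893 and 17589, with log2 differences of 0.43 (SE 0.205) and -0.22 (SE 0.134). With 2 control libraries of number 20, leaving out replicate 3 or 4 left a single one, assumed to vary like the others, and 1 and 2 rows were then called.

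The limit on the kept share fell inside a continuous range of values. Just inside it, rows 6739, 21077 and 19499 had a larger reversed share of 19.5%, 19.4% and 19.3% of the rise. Just outside, rows 195, 7827 and 16911 had 20.3%, 20.3% and 20.6%. Row 7827, outside, was among the most precise of these, at 33.0 ± 2.67 TPM (SD, n = 7) in WT_VEH_DEN, 28.3 ± 3.38 TPM (SD, n = 10) with NVS-HD1 and 27.9 ± 2.29 TPM (SD, n = 9) in the knockout. Row 6739, inside, was called lower in the knockout, with 49.0 ± 4.67 TPM (SD, n = 9) against 58.0 ± 7.50 TPM (SD, n = 7) in WT_VEH_DEN (log2 difference -0.23, SE 0.093; limma, adjusted p = 0.0429). Without WT_NVS_DEN replicate 7, 3 of the 111 rows crossed the limit, and row 21077 fell from a kept share of 82.0% to 71.1% with NVS-HD1.

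A few kept rows stood side by side in the table. Of the 111, 8 were directly next to another kept row (7.21%). Next to a row of their own kind were 13.2% of the 751 rows in between and 5.13% of the 39 reversed rows. A larger set has more such neighbours by its size alone, so these shares cannot be compared between the sets. Rows 12943, 12944 and 12945 had control means of 37.7, 37.4 and 36.6 TPM and WT_VEH_DEN means of 102.9, 98.7 and 92.1 TPM, and within groups they varied with r of 0.958 and 0.977 between neighbours over the 34 libraries. Rows 17909 and 17910 varied with r of 0.934, rows 17908 and 17909 with r of 0.484 and rows 4549 and 4550 with r of 0.677. The log2 rises were 1.30 in row 17908 and 3.05 in row 17909, and 1.28 and 1.37 in rows 4549 and 4550. Whether any of these neighbours share reads was not tested. The kept rows were otherwise spread over the table, with 33.3%, 31.5%, 24.3% and 10.8% in successive stretches of equal length from its top to its end, where the rows tested had 28.6%, 28.2%, 27.2% and 16.0%.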

How the data were processed

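The authors deposited 1 table of TPM for 34 libraries and 23737 rows. Each library sums to the fixed TPM total. The submitters' processing notes name STAR 2.4.5a and mm10, without the counting tool, annotation or filters. TPM hold no read depth, so no counting error can be given. Groups came from the labels.

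The analysis used log2(TPM + 1), a scale on which changes of low rows are understated. The 13108 rows that reached 1 TPM in 7 or more libraries entered 1 limma fit of all 4 groups (limma 3.58.1, R 4.3.3, trend, two-sided, Benjamini-Hochberg over all rows, threshold 0.05). A second fit had a mean per group and title number. Rises, falls, higher and lower calls refer to these tests. The member rule, the row sets and the tests were chosen with earlier results of these data known. Rows were named by a fixed rule: the 6 largest rises, 4 highest control levels, 4 highest under both interventions, 4 largest differences between interventions, 2 lowest p between title numbers in WT_VEH_DEN, and 3 on either side of the limit. Rows named for correlation, adjacency or a high library were chosen after their values were seen. Alternatives covered pseudocount, scaling, filter, trend, title number, the rule's limits and left-out libraries. Figures used Python 3.11.15 with matplotlib 3.10.9.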

Additional observations from a re-analysis of the deposited data

Results flagged for a closer look

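Values of 1 library far from the rest of its group were looked for in 112 combinations of group and measure (3 measures over all kept rows and 25 named rows), by the gap to the nearest library relative to the range of the group. There were 18 such values. The cutoffs give about 1 in 20, or 5.6, by chance for normally distributed values. TPM were used without logs, and some rows were named for differences that a single library can enlarge. The 18 can therefore not be set against the 5.6. These 18 values are also not independent, since 10 of them belong to WT_NVS_DEN replicate 7.

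This library stood at 145.1% of the denervation rise over the kept rows (others 91.3% to 114.7%), at 144.9% when it took no part in their choice (others 90.8% to 115.3%), and its kept rows held 1.27% of all TPM (others 0.774% to 1.02%). Its TPM was 181.4 in row 4216 (others up to 109.0), 95.2 in row 4509 (up to 69.8), 622.1 in row 17909 (up to 351.6), 131.2 in row 2981 (up to 87.5), 27.1 in row 1419 (up to 12.0), 41.3 in row 17908 (up to 11.9) and 23.5 in row 16911 (up to 12.7). Over the 111 rows the median kept share with NVS-HD1 was 103.0% without this library, against 109.3% with it.

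In the same group, replicate 1 had 1856 TPM in row 349 (others 802.5 to 1344) and replicate 9 had 77.3 TPM in row 6739 (others 44.8 to 60.02). In control legs, replicate 4 had 43.9 TPM in row 5366 (others 7.18 to 21.5), replicate 2 had 10.6 TPM in row 17908 (others 1.02 to 3.33), and replicate 8 had 11.1 TPM in row 1419 (others 1.84 to 5.59) and 8.57 TPM in row 16911 (others 4.07 to 6.06). In WT_VEH_DEN, replicate 5 had 36.4 TPM in row 10704 (others 9.80 to 20.7) and 7.10 TPM in row 2981 (others 36.5 to 44.9).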

How the results depend on the processing

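The rule gave 111 rows as deposited, 203 with the title number as a term (80 of them among the 111), 181 with a log2 rise of at least 0.8 and 28 with one of at least 1.5. The other 10 alternatives gave 78 to 158 rows. Of the 111 rows, 78 were chosen again after median-of-ratios scaling (82 rows in all), 67 when quantile-normalized (78) and 72 when rescaled to the total outside the 20 most abundant rows (115). Leaving out single libraries gave 101 to 122 rows. The number of kept rows called different from WT_VEH_DEN with NVS-HD1 was 9, and 17 when quantile-normalized, 24 when the 20 most abundant rows were left out and 0 with a title-number term. For the knockout it was 12, and 19 without the 20 most abundant rows and 0 under the title-number term. Under that term 68 rather than 111 were called different from control in either direction. The causes of these changes were not tested. Under the title-number term the median SE of the difference from WT_VEH_DEN was 0.383 with NVS-HD1 and 0.44 in the knockout. Between title numbers 29 and 20 in control legs, leaving out single libraries gave 0 to 2 rows. The median kept shares ranged from 97.7% to 122.9% with NVS-HD1 and from 95.1% to 117.4% in the knockout over 13 alternatives. The denervation rises of the 25 named rows kept direction and call in all 925 refits. These rows were all chosen for a log2 rise of at least 1, which all but requires that outcome. No paired analysis was possible because the labels give no replicate numbers that groups share. TPM hold no depth, so the precision of low rows is unknown beyond the spread between libraries.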
